A study of Homo sapiens with 2 samples.

Results

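The ATP-binding cassette (ABC) transporter genes were taken by symbol, as every listed gene named ABC with a subfamily letter from A to G and a number. There were 29 such genes among 16424 listed genes. Subfamily A had 5 of them, B 6, C 8, D 4, E 1, F 3 and G 2. RNA came from the established hepatoma line PLC/PRF/5, which is human. There was 1 library of non-treated cells (0 µg/ml) and 1 of cells given 3 µg/ml M2BPGi, a glycosylation isomer of Mac-2 binding protein, for 6 h. Each was read by cap analysis of gene expression (CAGE), which counts 1 tag for each capped 5′ end, so that a value does not grow with the length of the transcript. The values are CPM, in which the tags of a gene are scaled to the total of its library, and are therefore shares of each library. With 1 library per condition no difference has a replicate check, and differences between cultures and between conditions cannot be told apart.

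ABC proteins bind and hydrolyse ATP in a pair of conserved nucleotide-binding domains, and most use it to move lipids, bile constituents, drug conjugates, haem precursors or peptides across a membrane. In hepatocytes, members of subfamilies B, C and G pump bile constituents and drug conjugates across the canalicular membrane, other members of subfamily C export substrates toward the blood, and members of subfamily A load lipids onto lipoproteins. Subfamilies E and F lack membrane-spanning domains and act on ribosomes and translation.

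The CPM steps gave estimated totals of 24040208 tags for the non-treated and 24862943 tags for the M2BPGi-treated library, in which 1 tag was worth 0.0416 and 0.0402 CPM. Tags read back in this way rest on values rounded to 2 decimals. Tag ratios below carry 95% Clopper-Pearson intervals, which cover counting error only. Of the 29 genes, 24 had a mean CPM of at least 1, and these 24 were also at or above 1 CPM in each library. The log2 ratio (M2BPGi-treated over non-treated) was taken on CPM + 1, a pseudocount that makes differences of low genes look smaller.

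Most of the measured ABC genes were lower in M2BPGi-treated cells, by small amounts, and ABCC6 was the exception with a large difference upward. Of the 24 genes, 20 were lower by any amount, against 57.0% of all 13724 genes that passed this filter, and 4 were higher, against 42.9%. With all ratios centred on a median of 0, 18 were lower, against 50.0% of all genes. At least 1.5-fold higher was 1 gene, ABCC6, where the background was 1.60%. At least 1.5-fold lower was 1 gene, ABCC10, where the background was 4.04%, so that the numbers of genes past this fold were too small to read against the background. The median log2 ratio was −0.19 over the 24 genes and −0.05 over all 13724 genes. Summed over the 29 genes, the level was 810.9 CPM without and 698.8 CPM with M2BPGi, a tag ratio of 0.862 (0.844 to 0.880). Without ABCC6 this ratio was 0.844 (0.827 to 0.862). Fewer expressing cells and less RNA per cell cannot be told apart in these values.

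**Figure D1:**
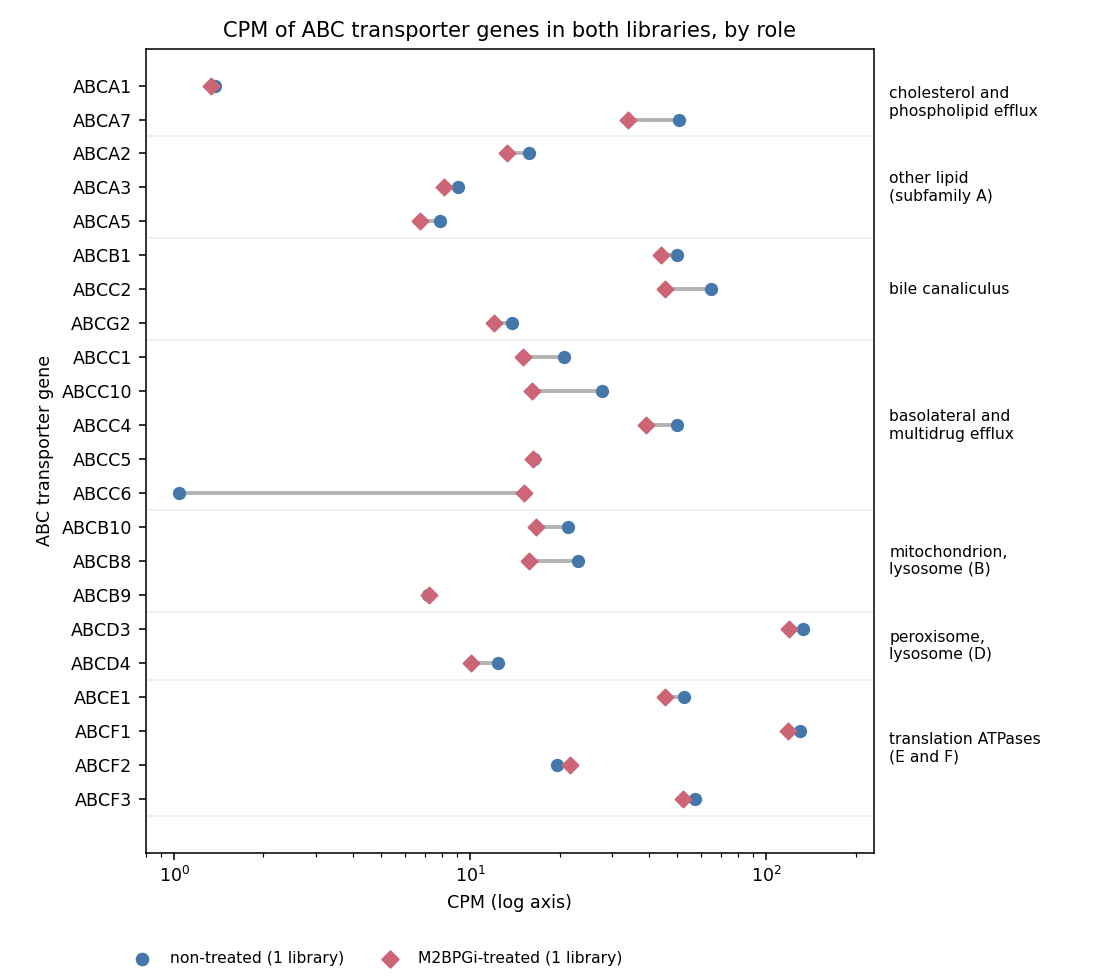
CPM of 22 of the 24 ABC transporter genes that passed the filter, on a log axis, in the non-treated library (circles) and the M2BPGi-treated library (diamonds), grouped by role. The diamond lies to the left of the circle for 19 genes, and ABCC6 has the longest line, from 1.04 to 15.2 CPM.

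ABCC6 belongs to the multidrug resistance protein subfamily, sits in the basolateral membrane of hepatocytes and mediates ATP release from the liver; its inherited loss causes pseudoxanthoma elasticum. The gene had 25 tags, or 1.04 CPM, in non-treated cells. In M2BPGi-treated cells it had 377 tags, or 15.2 CPM. The log2 ratio was 2.99, and the tag ratio without a pseudocount was 14.6 (9.72 to 22.8). ABCC6 lies on the minus strand of chromosome 16, at chr16:16148928-16223522 in GRCh38 (GENCODE v29). Its 5′ end has near-identical copies in the pseudogenes ABCC6P1 and ABCC6P2 on the same chromosome, and CAGE tags come from this end. Over the first 500 nt of ABCC6 transcripts, the match to ABCC6P1 had an identity of 99.6% and the match to ABCC6P2 99.2%. The first 120 coding bases of ABCC6 and the matching stretches of both pseudogenes in GENCODE v29 are shown to let this likeness be seen, with a base that differs from ABCC6 in capitals.
ABCC6: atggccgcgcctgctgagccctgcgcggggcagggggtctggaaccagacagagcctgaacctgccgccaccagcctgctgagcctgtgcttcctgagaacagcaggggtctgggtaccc
ABCC6P1: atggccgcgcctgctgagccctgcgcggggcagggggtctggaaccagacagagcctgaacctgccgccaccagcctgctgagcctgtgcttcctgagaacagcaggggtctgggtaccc
ABCC6P2: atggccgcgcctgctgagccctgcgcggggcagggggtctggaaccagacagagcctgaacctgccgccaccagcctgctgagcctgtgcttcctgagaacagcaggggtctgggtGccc
ABCC6P1 differed from ABCC6 at 0 of these 120 bases and ABCC6P2 at 1. ABCC6P1 was listed at 0.79 CPM without and 3.54 CPM with M2BPGi, a log2 ratio of 1.34, and ABCC6P2 was not listed. Together ABCC6 and ABCC6P1 had 1.83 CPM without and 18.7 CPM with M2BPGi. The gene and its pseudogene were thus higher together. How tags that match several places were assigned is not stated, and which copy gave the tags was not tested.

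Most genes around ABCC6 did not share its difference. Of the other listed identifiers within about 2 Mb of the gene, 19 had a mean CPM of at least 1. The starts of MKL2 and TVP23CP2 lie a little further out, at −2152 and −2023 kb from that of ABCC6. Of the 19, 18 were less than 1.5-fold apart, and the median log2 ratio of all 19 was −0.10. Most genes anywhere were also inside this fold: of all 13724 genes, 1.60% lay past it upward and 4.04% downward, with a median of −0.05. ABCC1, which ends tail to tail with ABCC6 across a gap of 5.85 kb, was at 20.7 CPM without and 15.0 CPM with M2BPGi. NOMO3, whose start lies 8.97 kb from that of ABCC6, was at 1.91 and 2.53 CPM. The other identifier was RRN3, which encodes an initiation factor of RNA polymerase I and starts 1129 kb away. It was at 2.95 CPM without and 17.5 CPM with M2BPGi, a log2 ratio of 2.23, and was singled out after its value was seen. Copies of RRN3 were not searched for. The 19 identifiers are not all separate values. MPV17L counts as 2 of them, with the same CPM for both, and PKD1P6 and hsa-mir-3180-4 also share their CPM, 14.6 without and 10.5 with M2BPGi.

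**Figure D2:**
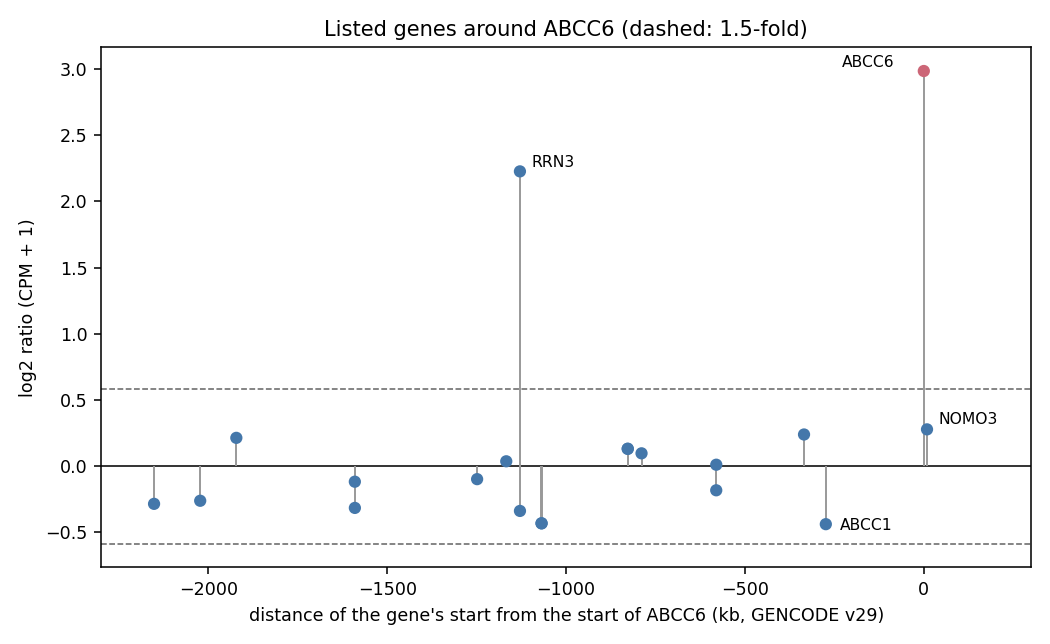
Log2 ratio of CPM + 1 (M2BPGi-treated over non-treated) of listed identifiers with a mean CPM of at least 1 around ABCC6, against the distance of their start from that of ABCC6 in kb; dashed lines mark 1.5-fold. ABCC6 at 2.99 and RRN3 at 2.23 stand above the upper line, and the 18 others lie between the lines.

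The other exporters of the basolateral and multidrug group that passed the filter had lower or near-equal values. ABCC10, a multidrug resistance protein that transports glutathione conjugates and taxanes, was at 27.9 CPM without and 16.2 CPM with M2BPGi. Its tag ratio was 0.580 (0.511 to 0.658) and its log2 ratio −0.75, the lowest among the 24 genes. ABCC1, the founding multidrug resistance protein and an exporter of glutathione conjugates and leukotrienes, had a tag ratio of 0.726 (0.633 to 0.832) and a log2 ratio of −0.44. ABCC4, which exports cyclic nucleotides and, with glutathione, bile acids, was at 50.0 CPM and 39.3 CPM. Its tag ratio was 0.787 (0.722 to 0.857) and its log2 ratio −0.34. These 3 genes were lower beyond counting error. ABCC5, an exporter of cyclic nucleotides and nucleotide analogues, was at 16.4 CPM without and 16.2 CPM with M2BPGi, a log2 ratio of −0.01 with a tag ratio of 0.992 (0.861 to 1.14). Any difference in ABCC5 was within counting error, and its sign turned when all ratios were centred on a median of 0. ABCC11 was under a mean of 1 CPM and was higher in M2BPGi-treated cells, with 0.67 and 0.97 CPM, or 16 and 24 tags, and a tag ratio of 1.45 (0.739 to 2.92) that included 1. It overlaps LONP2 on the opposite strand, which was at 19.3 and 26.4 CPM. ABCC3, a basolateral exporter of bile acid and bilirubin conjugates, was listed at 0 in both libraries. At this depth 0 tags still leave room for a level of 0.125 CPM without and 0.121 CPM with M2BPGi. This room covers counting error only, since stretches of 102 to 130 nt near the 5′ end of ABCC3 match SGCB, TMEM33 and OLR1, which were listed.

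The canalicular exporters were lower in M2BPGi-treated cells in all 3 listed cases, beside 57.0% of all genes, with a summed level of 128.9 CPM without and 101.3 CPM with M2BPGi. ABCC2, which pumps bilirubin glucuronides and other conjugates into bile, was at 65.1 CPM without and 45.4 CPM with M2BPGi. Its tag ratio was 0.697 (0.645 to 0.752) and its log2 ratio −0.51. It had the lowest ratio of the 3. ABCB1, the P-glycoprotein that expels many hydrophobic drugs, was at 50.0 CPM and 43.9 CPM, a log2 ratio of −0.18 with a tag ratio of 0.878 (0.808 to 0.954). Part of its first 500 nt, 241 nt, matches the phospholipid flippase gene ABCB4 with an identity of 95.4%, and ABCB4 was not listed. ABCG2, an exporter of urate and sulphated conjugates, was at 13.8 CPM without and 12.0 CPM with M2BPGi. Its log2 ratio was −0.18, and its tag ratio of 0.873 (0.744 to 1.02) included 1. ABCB11, the bile salt export pump, and the sterol exporters ABCG5 and ABCG8 were not listed.

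The lipid transporters of subfamily A were lower in 5 of 5 cases (ABCA1 excepted once ratios were centred), beside 57.0% of all genes, by amounts that ranged from near 0 to close to the 1.5-fold limit. ABCA7, which moves phospholipids and serves phagocytosis, was at 50.7 CPM without and 34.2 CPM with M2BPGi. Its tag ratio was 0.673 (0.616 to 0.736) and its log2 ratio −0.56. ABCA1, the exporter of cholesterol and phospholipids to apolipoprotein A-I that starts high-density lipoprotein, had 33 tags in each library, at 1.37 and 1.33 CPM. Depth limits what can be said of ABCA1, while ABCA7 rests on 1219 and 849 tags. ABCA2, a transporter of late endosomes and lysosomes, was at 15.7 and 13.3 CPM, a log2 ratio of −0.23 with a tag ratio of 0.844 (0.726 to 0.981). ABCA3, which loads surfactant lipids in lung, was at 9.11 and 8.16 CPM. ABCA5, a lysosomal member, was at 7.90 and 6.76 CPM. The tag ratios of ABCA1 (0.578 to 1.62), ABCA3 (0.737 to 1.09) and ABCA5 (0.690 to 1.06) had intervals that included 1, so that their differences were within counting error. ABCG1, which exports cholesterol to mature high-density lipoprotein, was listed at 0 in both libraries.

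Of the mitochondrial and lysosomal members of subfamily B, ABCB8 and ABCB10 were lower and ABCB9 was near equal in both libraries. ABCB8, a transporter of the mitochondrial inner membrane, was at 23.2 CPM without and 15.7 CPM with M2BPGi. Its tag ratio was 0.679 (0.595 to 0.774) and its log2 ratio −0.53. ABCB10, an inner-membrane protein needed for haem synthesis, was at 21.3 and 16.7 CPM, with a tag ratio of 0.782 (0.686 to 0.892) and a log2 ratio of −0.34. Both were lower beyond counting error, although part of the first 500 nt of ABCB10, from base 227, matches pseudogenes that were not listed. ABCB9, a lysosomal peptide transporter, was at 7.20 and 7.24 CPM. ABCB9 overlaps ARL6IP4 and OGFOD2 on the opposite strand, and whether strand was used in counting is not stated. ABCB6, a porphyrin transporter, was under a mean of 1 CPM, with 5 tags in non-treated and 3 tags in M2BPGi-treated cells.

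Subfamily D serves peroxisomes and lysosomes, and its members ABCD3 and ABCD4 were lower by small amounts. ABCD3, which carries branched-chain and dicarboxylic acids and bile acid precursors into peroxisomes, was at 132.7 CPM without and 119.4 CPM with M2BPGi and had the highest mean CPM of the 29 genes. Its log2 ratio was −0.15, with a tag ratio of 0.900 (0.856 to 0.947). ABCD4, which releases cobalamin from lysosomes, was at 12.4 and 10.1 CPM, a log2 ratio of −0.27 with a tag ratio of 0.814 (0.685 to 0.966). ABCD2 was listed at 0 in both libraries.

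The ATPases of subfamilies E and F were among the more abundant ABC genes. Of these 4, 3 were lower by small amounts, beside 57.0% of all genes. ABCE1, which splits ribosomes after termination, was at 52.6 CPM without and 45.4 CPM with M2BPGi, a log2 ratio of −0.21 with a tag ratio of 0.864 (0.796 to 0.937). It overlaps ANAPC10, at 19.7 and 22.4 CPM, and OTUD4, at 10.9 and 11.1 CPM, on the opposite strand. Parts of its first 500 nt also have near-identical copies, which were listed at or near 0. AL513175.1 matched with an identity of 98.3% over 348 nt from base 153, and AC006026.1 over 361 nt from base 140. These matches do not reach the first base of the transcript. ABCF1, which binds the initiation factor eIF2, was at 130.0 and 118.7 CPM, a log2 ratio of −0.13 with a tag ratio of 0.913 (0.868 to 0.960). Stretches of 101 to 133 nt near the 5′ end of ABCF1 transcripts match 3 other genes, of which FKBP10 was listed. ABCF3 was at 57.6 and 52.4 CPM, a log2 ratio of −0.13 with a tag ratio of 0.910 (0.843 to 0.983). ABCF2 alone in this group was higher, at 19.6 CPM without and 21.7 CPM with M2BPGi. Its log2 ratio was 0.14, and its tag ratio of 1.11 (0.980 to 1.26) included 1.

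**Figure D3:**
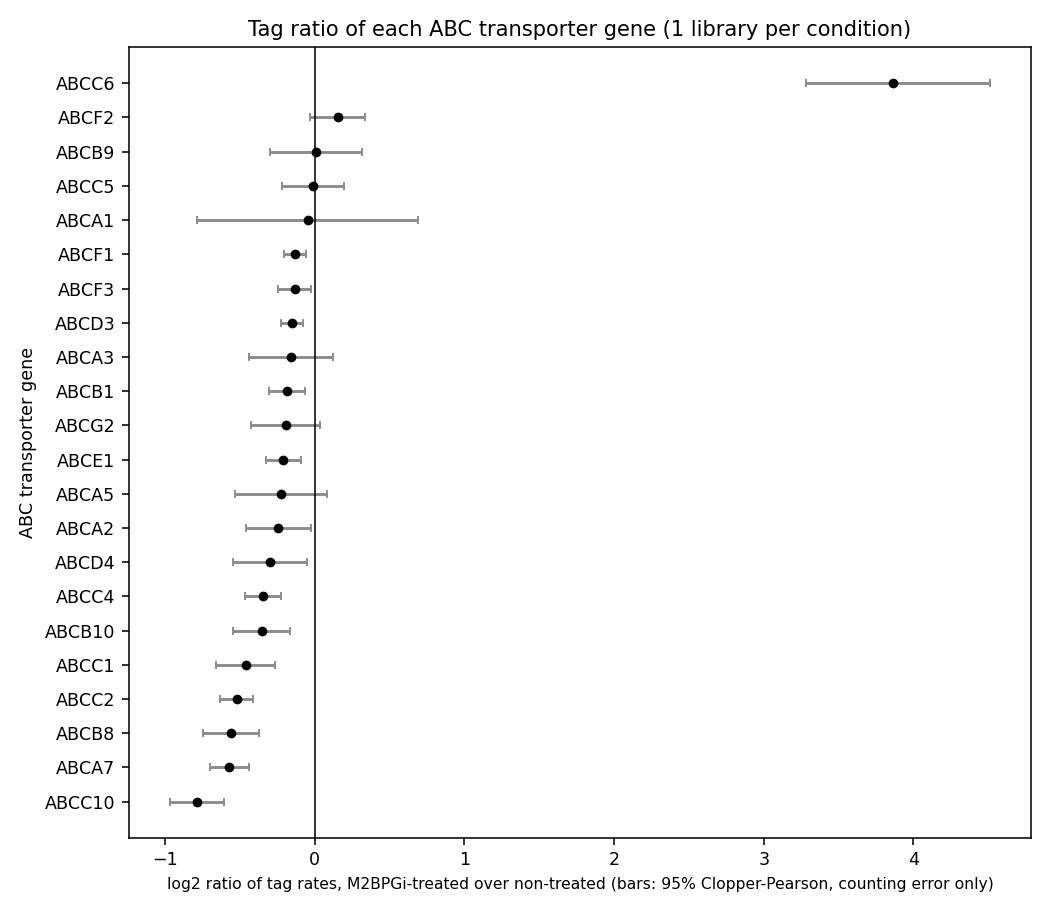
Log2 ratio of the tag rates (M2BPGi-treated over non-treated, no pseudocount) of 22 of the 24 ABC transporter genes in order of the ratio, with 95% Clopper-Pearson intervals that cover counting error only. ABCC6 stands far to the right at 3.87, and ABCC10 is lowest at −0.79.

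By subfamily, the median log2 ratio was −0.20 in A, −0.18 in B, −0.39 in C and −0.13 in F. These medians rest on few genes and moved with the filter on low values. With a mean of 10 CPM or more they were −0.39 in A and −0.34 in B, and with no filter −0.18 in C, so that their order is not fixed. ABCE1 and ABCG2 were the one measured member of E and of G. Subfamily C had both the highest and the lowest ratio. Without ABCC6, the summed CPM of subfamily C was 180.7 in non-treated and 133.0 in M2BPGi-treated cells. Most ABC genes, as the plot of log2 ratio against mean CPM shows, lay inside the cloud of all genes but below its middle. Against all genes, 18 of the 24 were below the median, 8 were at or below its lower quartile and 3 at or above its upper quartile.

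**Figure D4:**
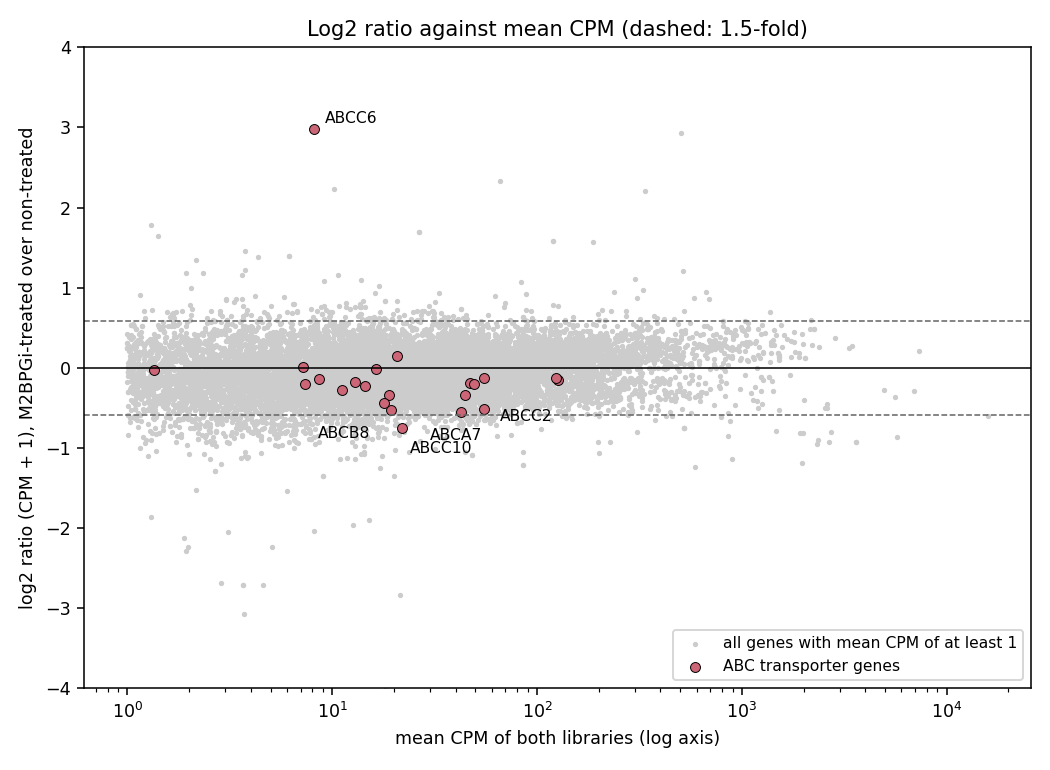
Log2 ratio of CPM + 1 (M2BPGi-treated over non-treated) against mean CPM on a log axis for the 13724 genes that passed the filter (grey) and 22 of the 24 ABC transporter genes (red); dashed lines mark 1.5-fold and 8 genes lie beyond the vertical axis, which ends at 4. ABCC6 lies above the upper line, ABCC10 below the lower line and the other members between them.

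ABC genes have long transcripts, and genes with longer transcripts had lower log2 ratios in general. The 13271 of the 13724 genes (96.7%) whose identifier has a transcript length in GENCODE v29, with all 24 ABC genes among them, were put in 4 groups of near-equal size in order of their longest transcript. From the shortest to the longest group, the median log2 ratio of these genes was 0.03, −0.03, −0.07 and −0.12. The median transcript length was 4933 nt for the 24 ABC genes and 3262 nt for all genes with a length. Of the 24, 0 were in the shortest group, 2 in the next, 10 in the next and 12 in the longest. In the last 2 groups the ABC genes had median log2 ratios of −0.18 and −0.21, below those of all genes in these groups. Among all genes in the range of lengths of the members, 62.5% were lower in M2BPGi-treated cells and the median was −0.09. The part of transcript length in the lower values of the ABC genes was not tested.

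**Figure D5:**
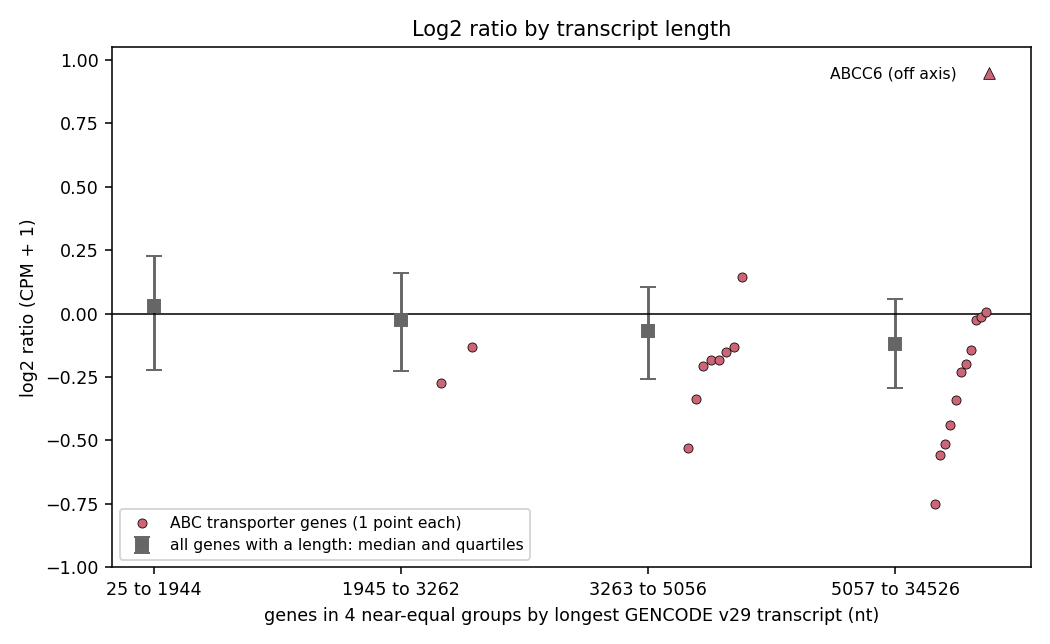
Log2 ratio of CPM + 1 in 4 groups of genes in order of transcript length (nt); squares with bars are the median and quartiles of the 13271 genes with a transcript length and red points are 22 single ABC transporter genes, spread sideways in order of their ratio. The median of these genes goes from 0.03 in the shortest to −0.12 in the longest group; ABCC6 (triangle) is beyond the axis.

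Promoter windows of most measured ABC genes were rich in G and C. Sequences from RefSeq (GRCh38.p14), 250 bases upstream of the start, were matched for 21 of the 24 genes. Their median GC content was 66.4%, against 58.0% over 27305 promoters of the same length. These 27305 were not filtered by CPM, unlike the 24 genes, so the 2 sets are not alike. The GC box (GGGCGG on either strand) was in 14 of the 21 and in 42.3% of all promoters, the CCAAT box (CCAAT on either strand) in 3 and in 33.0%, and the TATA box (TATAAA on either strand) in 3 and in 11.1%. An E-box (CACGTG) was in 2 and in 6.49%. GC content and motifs were counted over all 250 bases, also where these lay past the GENCODE v29 start of the gene. All 250 bases did so for ABCB9, ABCC10 and ABCE1. The part before that start held 0 GC boxes in ABCA5, ABCB9, ABCC10, ABCD4, ABCF1 and ABCF3. It held 0 TATA boxes in ABCA1 and ABCC5. The upstream sequences of ABCC6, ABCA7 and ABCC2 are shown as those of the gene that was higher and of 2 well-measured genes that were lower, each ended at the GENCODE v29 start of the gene, with GC, CCAAT and TATA boxes in capitals.
ABCC6, chr16:16223523-16223744, minus strand: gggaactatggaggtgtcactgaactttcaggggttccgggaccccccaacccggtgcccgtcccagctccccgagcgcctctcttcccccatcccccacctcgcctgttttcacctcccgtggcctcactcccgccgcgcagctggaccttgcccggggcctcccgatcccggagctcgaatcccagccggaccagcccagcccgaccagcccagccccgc
ABCA7, chr19:1039857-1040100, plus strand: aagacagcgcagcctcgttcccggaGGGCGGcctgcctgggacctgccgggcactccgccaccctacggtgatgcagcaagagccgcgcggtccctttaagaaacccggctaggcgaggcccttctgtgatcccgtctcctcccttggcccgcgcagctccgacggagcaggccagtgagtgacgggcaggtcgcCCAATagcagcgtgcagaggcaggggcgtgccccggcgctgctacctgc
ABCC2, chr10:99782390-99782639, plus strand: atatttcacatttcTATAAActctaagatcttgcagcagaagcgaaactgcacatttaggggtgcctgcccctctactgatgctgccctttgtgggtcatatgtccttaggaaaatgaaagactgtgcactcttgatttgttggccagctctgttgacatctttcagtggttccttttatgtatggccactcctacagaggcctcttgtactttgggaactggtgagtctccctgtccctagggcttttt
The ABCC6 stretch had none of these motifs, ABCA7 had 1 GC box and 1 CCAAT box, and ABCC2 had 1 TATA box. The ABCB1 window had the lowest GC content of the 21, 39.2%, and the ABCC4 window the highest, 80.4%. Motif matches describe the letters and not a bound site.

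Genes that work beside ABC transporters went in both directions. Members of the ABC superfamily under other names were lower in 3 of 3 cases, beside 57.0% of all genes, with a median log2 ratio of −0.53. TAP2, a subunit of the peptide transporter of antigen presentation, was at 36.9 CPM without and 21.0 CPM with M2BPGi, a log2 ratio of −0.79, and was the 1 of the 3 at least 1.5-fold lower, beside 4.04% of all genes. TAP1, its partner, had the highest log2 ratio of the 3, −0.39, at 21.8 and 16.5 CPM. CFTR, the chloride channel of cystic fibrosis, was at 19.7 and 13.3 CPM. Of 15 hepatic uptake and solute carrier genes, 7 were listed and their median log2 ratio was 0.02. SLC27A5, the bile acid-CoA ligase, was highest at 18.1 and 20.2 CPM, and ATP7B, the copper exporter, lowest at 27.0 and 18.9 CPM.

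Of 21 receptors and factors that regulate ABC genes, 18 were listed, with a median log2 ratio of 0.09, and 11 were higher. NR1H3, which encodes the oxysterol receptor LXR alpha, was highest at 11.4 CPM without and 14.6 CPM with M2BPGi. RXRB, a partner of such receptors, was lowest at 16.5 and 9.81 CPM, a log2 ratio of −0.70, and was the 1 gene of this list at least 1.5-fold lower, beside 4.04% of all genes. Of 14 high-density lipoprotein and sterol genes, 9 were listed, with a median log2 ratio of −0.18. APOA2, an apolipoprotein of high-density lipoprotein, was highest at 241.4 and 260.6 CPM. Of these 9 genes 7 were lower, beside 57.0% of all genes, and the 11 of 18 regulators that were higher stand beside 42.9% of all genes; neither list was tested.

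Partners of the organelle members were closer to 0 or higher. Of 11 partners of subfamily D in peroxisomes and in cobalamin handling, 10 passed the filter, with a median log2 ratio of −0.03. Among those with a mean of 10 CPM or more, SCP2, a thiolase and sterol carrier, was highest at 72.8 and 104.6 CPM. LMBRD1, the lysosomal partner of ABCD4, was lowest at 90.9 and 70.2 CPM. MMACHC, a cobalamin-processing protein at 3.33 and 5.99 CPM, was at least 1.5-fold higher, beside 1.60% of all genes, and is named after its value was seen. The 13 iron-sulphur and haem genes had a median of 0.12. GLRX5, a mitochondrial glutaredoxin, was highest among them at 152.2 and 222.5 CPM, and PPOX, an enzyme of haem synthesis, lowest at 12.3 and 11.0 CPM. Of 12 ribosome partners of subfamilies E and F, 10 were listed, with a median of 0.12. EIF2S1, a subunit of eIF2, was highest at 89.0 and 111.7 CPM, and GCN1L1 lowest at 38.1 and 31.2 CPM.

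Marker genes were read as a check of the cell line. All 8 hepatocyte and hepatoma genes were listed, with a summed level of 1444 CPM without and 1094 CPM with M2BPGi and a median log2 ratio of −0.35. AFP was the most abundant at 695.4 and 565.6 CPM, and with SERPINA1 it gave most of the summed level. ALB was far lower, at 8.82 and 7.04 CPM, and is named after its value was seen. SERPINA1 had the lowest log2 ratio of those with a mean of 10 CPM or more, at 670.8 and 455.2 CPM, and HNF4A the highest, at 39.1 and 43.8 CPM. TF, at 6.61 and 4.02 CPM, was at least 1.5-fold lower, beside 4.04% of all genes, and is named after its value was seen. The log2 ratio of TF, −0.60, was close to the 1.5-fold limit and falls inside it with all ratios centred on a median of 0. Of the 8 genes 6 were lower, beside 57.0% of all genes, and 2, HNF4A and APOA1, were higher. Their part in the ABC values was not tested. Of 6 stromal genes COL1A1 was listed, at 0.67 and 0.76 CPM. Of 5 macrophage genes, CD68 was at 21.2 and 20.5 CPM and PTPRC, the pan-leukocyte marker, was listed at 0 in both. Of 3 endothelial genes 0 were listed. Of 4 biliary genes 3 were listed, with a summed level of 176.6 and 167.4 CPM, of which KRT19 gave 163.8 and 156.0 CPM.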

How the data were processed

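PLC/PRF/5 cells gave 2 CAGE libraries. The authors discarded ribosomal tags and deposited CPM per gene, rounded to 2 decimals. The methods name BWA and mouse mm9. Submitters' processing notes name BWA, HISAT2 and hg19, and the identifiers are human. The annotation, strand use and treatment of multiply matching tags are not stated. Ratios used a pseudocount of 1 CPM, a filter of mean CPM at least 1 and a fold of 1.5. Tags were read back from the CPM step. Of the values above 0, 99.95% in the non-treated and 99.96% in the M2BPGi-treated library were whole tags within 0.005 CPM. Since that rounding spans 0.120 and 0.124 of a tag, recovery of whole reads was not claimed, and the planned exact test of tags, exact tests with assumed variation and TMM were not run. A near-identical copy matched the first 500 nt over at least 100 nt at 95% identity or more (BLAST+ 2.17.0). Members and lists were chosen with earlier results of these data known. Some genes that the naming rule selects are not reported here. Lists were given by their highest and lowest gene whose mean was 10 CPM or more, and genes past 1.5-fold at that level; copies and neighbouring genes were named after their values were seen. Scripts, tested on simulated data, used Python 3.11.15 and scipy 1.17.1.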

Additional observations from a re-analysis of the deposited data

How the results depend on the processing

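No paired analysis was possible because a single library stands for each condition. The planned exact test of tags with its alternatives and the TMM scaling were not run. Centring the ratios on a median of 0 moved the median of the ABC genes from −0.19 to −0.13. It turned the sign of ABCA1 and ABCC5. It also moved the split of all genes past 1.5-fold from 219 higher and 555 lower to 298 and 412. Over the other planned settings the median ran from −0.22 with a mean CPM of at least 10 to −0.15. With that filter 0 ABC genes were 1.5-fold higher, since ABCC6 has a mean of 8.10 CPM, beside 1.43% of all genes. With a fold of 2, 0 were lower, beside 0.43% of all genes. Counts of 0 among so few genes are near these shares. With pseudocounts of 0.1 and 5 CPM, with centring and with no filter, 1 gene was higher and 1 was lower each time. In this order, 2.45%, 0.66%, 2.17% and 1.36% of all genes were higher. Of all genes, 6.24%, 1.2%, 3.00% and 3.54% were lower. These counts were not taken without the genes that have a near-identical copy, of which ABCC6 is one. The log2 ratio of ABCC6 was 3.74 with a pseudocount of 0.1 CPM and 1.74 with 5 CPM. Other alternatives were chosen after seeing the data. The number of genes lower by any amount, 20 of 24, was 18 with centring, against 50.0% of all genes, and 17 of 18 with a mean CPM of at least 10, against 54.0%. Centred on genes in the members' range of transcript lengths it was 18, against 45.4%. Others left out ABCC6, which moved the change of the summed CPM from −13.8% to −15.6%, or ABCC10, which gave a median of −0.18. Of 72 values of single genes under other settings, 70 moved by less than their counting interval. Of 35 subfamily medians, 3 moved by more than the counting error of that median, a tolerance on the log2 scale set after the data were seen, which was 0.049 for all members and from 0.080 in F to 0.29 in G by subfamily. With a mean CPM of at least 10, A moved to −0.39 and B to −0.34, and with no filter C moved to −0.18.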
